A study of Mus musculus with 2 samples.

Results

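The 36 genes described here encode the soluble hydrolases of the lysosome, the helper proteins and transporters that pass lipids to and from them, the enzyme that tags them for delivery, and marker proteins of the organelle and its membrane. They were taken by symbol from a list of lysosomal genes, and the rule uses no measured value. All 36 stood in the expression table, each on 1 row, among 34295 genes. Poly(A) RNA had been sequenced from 2 wild-type C57BL/6J primary cultures of the mouse, 1 library each. The macrophages were differentiated for 6 days from marrow of femurs and tibias in medium with 10% serum and 30% L929-conditioned medium, plated at 750000 cells and collected after a night in culture. The fibroblasts were grown from midgestation embryos of about day 14, without head and red tissue. They were depleted of CD45, CD11b and F4/80 positive cells by sorting and kept in medium with 10% serum. They were used at passage 4 to 7 and collected from 100000 cells. The series was made for growth factor and receptor genes, and lysosomal genes were measured along with them. Levels are transcripts per 1000000 (TPM), which are already scaled for transcript length, so that genes can be set beside each other.

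The lysosome is the acid compartment in which cells break down what they take up and what they recycle. Its hydrolases are mostly soluble glycoproteins that receive a mannose 6-phosphate tag in the Golgi and travel to the organelle on receptors for that tag. Loss of almost any of them in humans leaves its substrate to pile up, as a lysosomal storage disease. Macrophages, which engulf dying cells and debris, are among the cells in which such storage is most visible.

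With 1 library per cell type there is no error, no test and no replicate check, and TPM keep no read depth, so each difference describes these libraries alone. Cell type cannot be told apart from medium, cell number and preparation, and in RNA of whole cultures fewer cells of a type and less RNA per cell cannot be told apart. Where genes are counted as higher in a library, or said to pass the rule, TPM plus 1 there was 4-fold or more the value in the other library and the level there was 5 TPM or more. Folds are ratios of plain TPM, and log2 ratios are of TPM plus 1, macrophage over fibroblast. Marker genes stood as the labels say: all 10 macrophage markers passed this limit toward macrophages, and together they held 20753 TPM in the macrophage library against 40.7 TPM in the fibroblast library. Of 10 fibroblast markers, 0 were higher in the macrophage library and 10 in the fibroblast library, with a summed level of 13.4 TPM in the macrophage library against 7758 TPM in the fibroblast library. Of 8 neutrophil genes, 5 were also higher in the macrophage library, led by S100a9 at 268 TPM against 0 listed in the fibroblast library and S100a8 at 157 TPM against 1.85 TPM in the fibroblast library. The list summed to 496 TPM in the macrophage and 1.93 TPM in the fibroblast library, with Ly6g listed at 0 in both, and its part in the results below was not tested.

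The set was expressed throughout in both cell types and was more abundant in macrophages. Its 36 genes summed to 21662 TPM, or 2.17% of all transcripts, in the macrophage library and to 6036 TPM, or 0.604%, in the fibroblast library, a 3.59-fold difference. By the 4-fold rule 11 members (30.6%) were higher in macrophages and 0 in fibroblasts. Among all 11191 genes at 5 TPM or more, 8.77% passed toward macrophages and 14.3% toward fibroblasts. Of the 35 members with a mean of at least 20 TPM the same number, 11, were higher in macrophages, where 8.3% of the 6471 genes with such a mean passed toward macrophages and 9.5% toward fibroblasts. At any size of difference, 29 members stood above their fibroblast level in macrophages, joined by Arsb under median-of-ratios scaling, and 38.5% of all genes at 5 TPM or more did so. The median log2 ratio of the members was 1.10, against -0.28 for the 13606 genes at 1 TPM or more in either library. The genes that reached 5 TPM in each library centred on -0.18, without the added 1. With the libraries centred on that median by median-of-ratios scaling, the members' median was 1.27 and 11 members again passed toward macrophages.

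**Figure D1:**
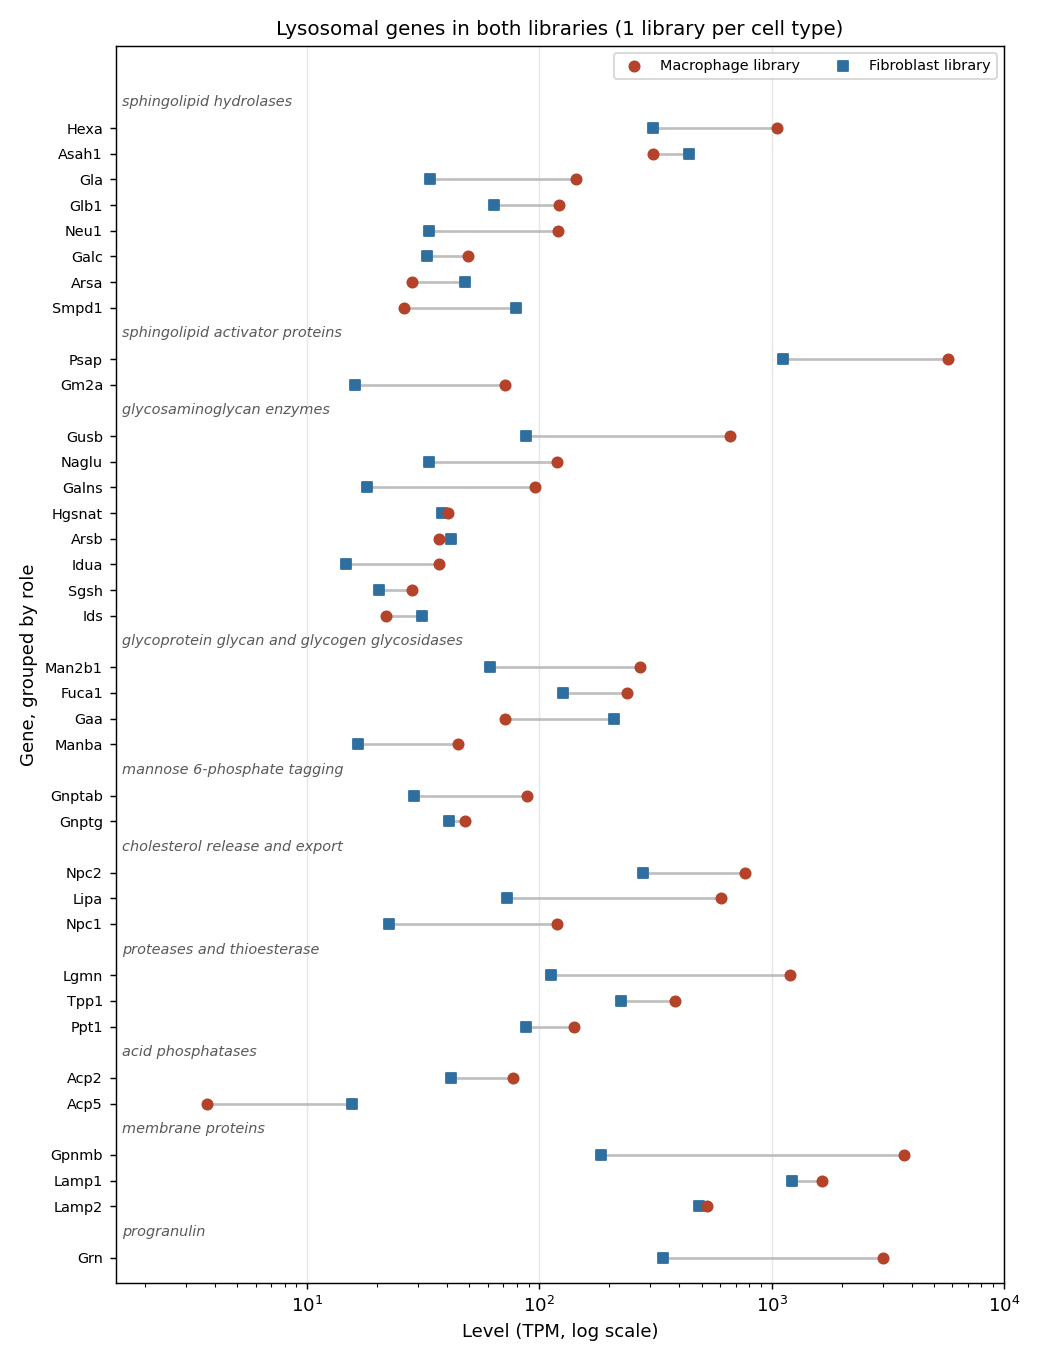
Level of each gene on a log axis of TPM, grouped by role, with circles for the macrophage library and squares for the fibroblast library. Psap is the highest macrophage point at 5756 TPM, Lamp1 the highest fibroblast point at 1227 TPM, and Acp5 the lowest macrophage point at 3.70 TPM.

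The difference was uneven within the set. Psap, Gpnmb and Grn held 57.5% of the set's transcripts in macrophages and 27.3% in fibroblasts, and they made up 69.1% of the difference between the 2 sums. Without them the other 33 genes summed to 9209 TPM in the macrophage and 4387 TPM in the fibroblast library, a 2.10-fold difference, with a median log2 ratio of 0.91. In fibroblasts the set was led by Lamp1, Psap, Lamp2 and Asah1, which together held 54.2% of it, against 38.1% in macrophages. Besides the 11 members past the rule, 7 were at least 2-fold higher in macrophages, 15 lay within 2-fold and 3 were at least 2-fold higher in fibroblasts. The order of the members was partly shared, with a Spearman rho of 0.75 between the libraries across the 36 genes, a description only, since genes of the same libraries are no replicates. Members close to the limit were Gm2a and Gla inside it, with log2 ratios of 2.08 and 2.06, and Neu1, Naglu and Hexa outside it, with 1.81, 1.79 and 1.78.

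**Figure D2:**
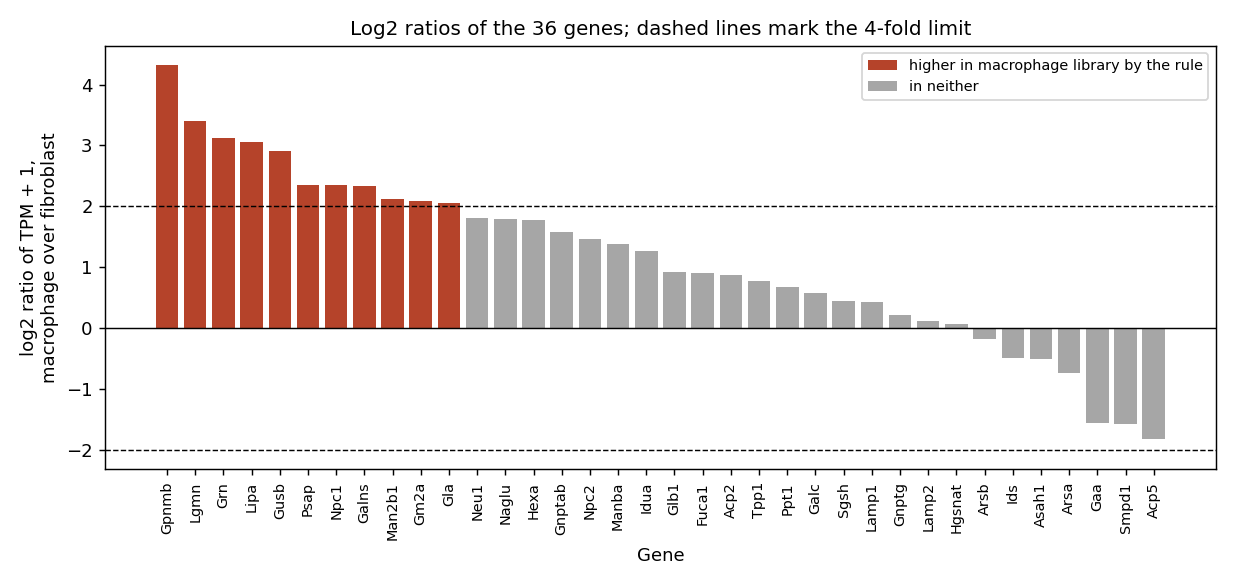
Log2 ratio of TPM plus 1, macrophage over fibroblast, for each of the 36 genes in falling order, with dashed lines at the 4-fold limit. The 11 bars past the upper line run from Gpnmb at 4.32 to Gla at 2.06, and 0 bars pass the lower line, where Acp5 comes closest at -1.82.

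Among marker genes at 100 TPM or more, each library held those of the other cell type at a trace level. The 9 macrophage markers at 100 TPM or more appeared in the fibroblast library at a median of 0.159% and at most 0.441% of their macrophage level. The lowest such share among the members was that of Gpnmb, at 4.99%. In the opposite direction, the 8 fibroblast markers at 100 TPM or more appeared in the macrophage library at up to 0.401% of their fibroblast level. The macrophage marker below 100 TPM, Mertk, was well above a trace, at 22.1 TPM in macrophages, against 4.59 TPM in fibroblasts. Subtracting the median marker share left 11 members higher in macrophages and 0 in fibroblasts. That share was far below that of every member, so these counts could hardly have moved and no conclusion is drawn from them.

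Promoter letters were examined because many lysosomal genes are known to carry an E-box variant, the CLEAR element (TCACGTGA with G before and C after it), which is bound by the factor TFEB and its relatives TFE3 and MITF. RefSeq windows (GRCm38.p6) of 250 bases before to 50 after a gene's start matched 32 members in 37 windows, and Asah1, Galns, Hgsnat and Npc1 had no entry. The core CACGTG, which reads the same on both strands, stood in 10 of the 37 windows (27.0%) and in 7.15% of 32851 windows of all genes. Its 8-letter form TCACGTGA stood in 3 windows (8.11%), of Gla and Gnptg, against 0.974% of all windows, and the full element in 0 of 37, against 0.326%. The E-box strings were not particular to this set. In 81 windows of 4 further lysosome lists, counted below, the core stood in 17 (21.0%), TCACGTGA in 12 (14.8%) and the full element in 1 (1.23%). GAGGAAGT, a letter string of the kind bound by the macrophage factor PU.1, stood on either strand in 2 windows (5.41%) against 3.20%, and TGAGTCA, the AP-1 string, in 4 (10.8%) against 5.20%. The 2 windows of Gnptg overlap and share their match. The longer E-box strings contain the shorter ones, and in Glb1 TGAGTCA overlaps CACGTG.

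Members with the E-box core had the lower median log2 ratio. Of the 9 members with a promoter entry that were higher in macrophages, 2 had CACGTG in a window, Gla and, at 1 of its 2 starts, Lgmn, and of the 23 others 7 had it. The median log2 ratio was 0.45 for the 9 members with the core and 1.39 for the 23 without it. The 2 groups overlapped: Acp5 and Smpd1, without the core, had log2 ratios of -1.82 and -1.58, and Lgmn, with it, had 3.41. As examples only, 5 promoters picked after the values were seen are shown. Each is given as the 250 bases before the start, 5′ to 3′ on the gene's strand. In them CACGTG, GAGGAAGT and TGAGTCA (or their complements) are in capitals. They are Lamp1 (chr8:13158911-13159160, plus strand), with 4 cores and a 1.35-fold difference, and Gla (chrX:134601006-134601255, minus strand), with 2 cores and a 4.27-fold difference. Gpnmb (chr6:49036268-49036517, plus strand) and Grn (chr11:102430257-102430506, plus strand) had no core and differed by 20.1-fold and 8.78-fold. Gaa (chr11:119267713-119267962, plus strand) had 1 core and a higher level in fibroblasts.
Lamp1: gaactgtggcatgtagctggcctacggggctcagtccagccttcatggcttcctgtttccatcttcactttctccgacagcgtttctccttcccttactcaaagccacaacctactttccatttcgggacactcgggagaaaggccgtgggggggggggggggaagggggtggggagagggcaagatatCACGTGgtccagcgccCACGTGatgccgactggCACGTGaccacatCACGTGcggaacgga
Gla: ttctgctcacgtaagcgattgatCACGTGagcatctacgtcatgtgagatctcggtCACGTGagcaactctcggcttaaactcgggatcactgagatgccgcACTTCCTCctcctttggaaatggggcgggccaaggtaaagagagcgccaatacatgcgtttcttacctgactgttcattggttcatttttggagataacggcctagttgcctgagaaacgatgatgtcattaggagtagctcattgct
Gpnmb: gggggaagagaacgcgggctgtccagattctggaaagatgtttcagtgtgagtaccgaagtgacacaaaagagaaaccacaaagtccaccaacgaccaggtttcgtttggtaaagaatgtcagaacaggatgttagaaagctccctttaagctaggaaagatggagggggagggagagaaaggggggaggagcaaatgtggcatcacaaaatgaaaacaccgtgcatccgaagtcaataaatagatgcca
Grn: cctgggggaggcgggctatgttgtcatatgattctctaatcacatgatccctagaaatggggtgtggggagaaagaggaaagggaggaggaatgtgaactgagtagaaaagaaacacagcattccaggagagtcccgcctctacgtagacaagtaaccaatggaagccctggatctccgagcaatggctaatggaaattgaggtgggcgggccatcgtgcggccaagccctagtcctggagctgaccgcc
Gaa: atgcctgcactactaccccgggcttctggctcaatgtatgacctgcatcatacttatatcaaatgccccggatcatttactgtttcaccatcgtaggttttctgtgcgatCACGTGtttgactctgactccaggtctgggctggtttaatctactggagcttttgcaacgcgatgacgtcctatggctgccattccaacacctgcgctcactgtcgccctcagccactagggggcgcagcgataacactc
In Lamp1 the cores began 61, 45, 28 and 15 bases before the start. In Gla they began 227 and 194 bases before it, each inside a TCACGTGA, and the complement of GAGGAAGT began 148 bases before it. In Gaa the core began 140 bases before the start. Gpnmb had 1 match to TGAGTCA or its complement, at base 9 after the start and thus outside the letters shown. A letter match is a description and no binding was measured here.

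Among the 8 enzymes that take sphingolipids apart, 1 (12.5%) was higher in macrophages by the rule. That share was near the 8.77% of all genes at 5 TPM or more. In macrophages 4 other enzymes stood above their fibroblast level and 3 below it, and the median log2 ratio was 0.75. Hexa encodes the alpha subunit of hexosaminidase A, which trims a sugar from ganglioside and is lost in Tay-Sachs disease. It was the most abundant of them in macrophages, at 1059 TPM against 307 TPM in fibroblasts, 3.45-fold. Gla, the alpha-galactosidase lost in Fabry disease, was the 1 enzyme of the group past the rule, at 144 TPM in macrophages, against 33.7 TPM in fibroblasts.

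Neu1, the sialidase that removes terminal sialic acid, stood at 120 TPM in macrophages, against 33.5 TPM in fibroblasts, just under the limit. Glb1, the beta-galactosidase whose activity is used to stain senescent cells, was at 121 and 63.6 TPM in the macrophage and fibroblast libraries. Galc, the galactosylceramidase lost in Krabbe disease, was at 49.5 and 32.7 TPM in the same order. These 3 genes therefore lay between 1.51-fold and 3.57-fold higher in macrophages.

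The enzymes at and around ceramide leaned the other way without reaching the limit. Smpd1, the acid sphingomyelinase that makes ceramide from sphingomyelin (chromosome 7 at 105554360 to 105558389, plus strand, in GRCm38 as all gene positions here), stood at 26.0 TPM in macrophages, against 79.7 TPM in fibroblasts, 3.06-fold higher in fibroblasts. Asah1, the acid ceramidase that takes ceramide further to sphingosine, was at 308 TPM in macrophages, against 439 TPM in fibroblasts. Arsa, the sulfatase acting on the myelin lipid sulfatide, was at 28.3 TPM in macrophages, against 47.6 TPM in fibroblasts. Asah1 and Arsa thus differed by 1.42-fold and 1.68-fold, both higher in fibroblasts.

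Many of these enzymes cannot reach a lipid in a membrane without a small activator protein, and both activator genes were higher in macrophages. Psap, the precursor that is cut into the 4 saposins (chromosome 10 at 60277627 to 60302597, plus strand), stood at 5756 TPM in macrophages, against 1123 TPM in fibroblasts, 5.12-fold. It was the most abundant member in macrophages and number 12 among all genes there. Gm2a, whose protein hands ganglioside to hexosaminidase A, stood at 71.3 TPM in macrophages, against 16.1 TPM in fibroblasts, 4.44-fold. Per transcript of the enzymes that use saposins, Psap was more abundant in macrophages: 18.7 transcripts per transcript of Asah1 against 2.56 in fibroblasts, 204 per transcript of Arsa against 23.6, and 116 per transcript of Galc against 34.3. For Gla these ratios were 39.9 in macrophages and 33.3 in fibroblasts, and Gm2a stood at 0.0674 per Hexa in macrophages and 0.0523 in fibroblasts. The activator and its enzyme therefore differed alike between the libraries for Gm2a with Hexa and for Psap with Gla, and unlike for Psap with Asah1, Arsa and Galc.

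**Figure D3:**
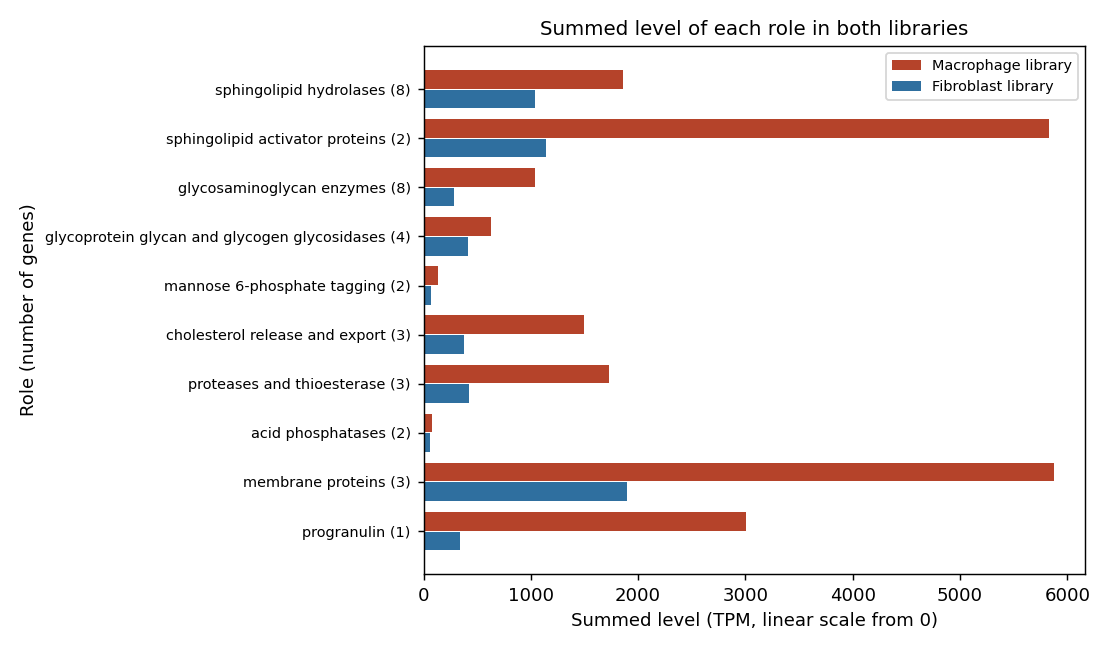
Summed TPM of the genes of each role on a linear axis from 0, macrophage bar above fibroblast bar, with the number of genes in brackets. The macrophage bar is the longer in each of the 10 roles, with the membrane proteins at 5876 against 1896 TPM and the activator proteins at 5828 against 1139 TPM as the longest bars.

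Of the 8 enzymes that degrade glycosaminoglycans, the sugar chains of matrix and cell-surface proteoglycans, 2 (25%) were higher in macrophages and 6 in neither library. Of all genes at 5 TPM or more, 8.77% were higher in macrophages. The median log2 ratio of the 8 enzymes was 0.86. Gusb encodes beta-glucuronidase, which removes glucuronic acid from the chain end (chromosome 5 at 129989011 to 130003049, minus strand). It stood at 662 TPM in macrophages, against 87.3 TPM in fibroblasts, 7.58-fold, and held most of the group's macrophage sum of 1040.5 TPM, against a fibroblast sum of 285 TPM. Galns, the sulfatase for keratan and chondroitin sulfate lost in Morquio disease, stood at 95.3 TPM in macrophages, against 18.2 TPM in fibroblasts, 5.24-fold.

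The enzymes that take heparan sulfate apart act in a fixed sequence on the chain end, and their levels did not move together. Naglu, which removes N-acetylglucosamine, was at 119 TPM in macrophages, against 33.5 TPM in fibroblasts, 3.54-fold. Idua, the iduronidase lost in Hurler disease, was at 36.8 TPM in macrophages, against 14.7 TPM in fibroblasts, the lowest fibroblast level of all members. Sgsh and Hgsnat, which act on the amino group of the glucosamine, stood at 28.2 and 40.2 TPM in macrophages, against 20.4 and 38.1 TPM in fibroblasts. Ids, the sulfatase lost in Hunter disease, was at 22.0 TPM in macrophages, against 31.1 TPM in fibroblasts. With Gusb, 5 of these 6 heparan sulfate enzymes stood above their fibroblast level in macrophages, by between 1.06-fold for Hgsnat and 7.58-fold for Gusb. Arsb, the sulfatase of dermatan sulfate, was at 36.9 TPM in macrophages, against 41.7 TPM in fibroblasts, a log2 ratio of -0.17 that became 0.01 under median-of-ratios scaling.

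The 4 glycosidases of glycoprotein sugars and glycogen were divided. Man2b1, the alpha-mannosidase, was higher in macrophages at 272 TPM against 61.6 TPM in fibroblasts, 4.42-fold. Manba, the beta-mannosidase, was at 44.7 and 16.5 TPM, and Fuca1, the fucosidase, at 238 and 126 TPM, in the macrophage and fibroblast libraries. Gaa, the acid glucosidase that digests glycogen and is lost in Pompe disease (chromosome 11 at 119267887 to 119285454, plus strand), was the exception, at 70.8 TPM in macrophages, against 209 TPM in fibroblasts, 2.95-fold higher in fibroblasts. By rank within the set Gaa was number 25 in macrophages and number 9 in fibroblasts.

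The tagging enzyme differed by subunit. Gnptab, which encodes the catalytic alpha and beta subunits, stood at 88.3 TPM in macrophages, against 28.8 TPM in fibroblasts, 3.07-fold. Gnptg, which encodes the gamma subunit, stood at 47.8 TPM in macrophages, against 40.8 TPM in fibroblasts. The ratio of Gnptg to Gnptab was therefore 0.541 in macrophages and 1.42 in fibroblasts. Among all genes at 5 TPM or more, 8.77% passed the rule toward macrophages and 14.3% toward fibroblasts. Of 10 genes in a list of hydrolase sorting receptors and adaptors, 0 were higher in either library by the rule, with a median log2 ratio of 0.71. At any size of difference, 7 stood above their fibroblast level in macrophages and 3 below it. Igf2r was among the 3, at 45.9 TPM in macrophages, against 68.4 TPM in fibroblasts. The most abundant were Lrp1 at 355 TPM in macrophages, against 187 TPM in fibroblasts, and the mannose 6-phosphate receptor gene M6pr at 246 and 137 TPM in the same order.

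All 3 genes of lysosomal cholesterol release stood above their fibroblast level in macrophages, 2 of them past the rule. Lipa, the acid lipase that frees cholesterol from the esters of engulfed lipoprotein (chromosome 19 at 34492318 to 34527474, minus strand), stood at 605 TPM in macrophages, against 72.2 TPM in fibroblasts, 8.38-fold. Npc1 and Npc2, named for Niemann-Pick type C disease, hand the freed cholesterol on and out of the organelle. Npc1, the membrane protein, was at 118 TPM in macrophages, against 22.5 TPM in fibroblasts, 5.26-fold. Npc2, the soluble carrier, was at 767 TPM in macrophages, against 279 TPM in fibroblasts, 2.75-fold. Npc2 transcripts outnumbered those of Npc1 by 6.48 to 1 in macrophages and by 12.4 to 1 in fibroblasts.

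Lgmn had the second largest ratio of the set. It encodes legumain, an asparagine-specific protease that also cuts cathepsins into their mature chains (chromosome 12 at 102394084 to 102439813, minus strand). It stood at 1202 TPM in macrophages, against 112 TPM in fibroblasts, 10.7-fold. Tpp1 and Ppt1, a tripeptidyl peptidase and a thioesterase whose loss causes forms of neuronal ceroid lipofuscinosis, stayed within 2-fold. Tpp1 was at 384 TPM in macrophages, against 224 TPM in fibroblasts, and Ppt1 at 140.2 TPM in macrophages, against 87.3 TPM in fibroblasts.

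The 2 acid phosphatases stood on opposite sides. Acp2, the general lysosomal form, was at 77.1 TPM in macrophages, against 41.8 TPM in fibroblasts. Acp5, the tartrate-resistant form used as an osteoclast stain (chromosome 9 at 22126727 to 22135711, minus strand), was at 3.70 TPM in macrophages, against 15.6 TPM in fibroblasts. Its TPM were 4.23-fold higher in fibroblasts, but with 1 TPM added the log2 ratio was -1.82 and it passed the rule only with a pseudocount of 0.1. It was the least abundant member in macrophages. Of 10 osteoclast markers 6 were detected at 1 TPM or more, 0 passed the rule toward macrophages and 1 toward fibroblasts, and Calcr was listed at 0 in both. The list summed to 33.6 TPM in macrophages and 168 TPM in fibroblasts, of which Ctsk, the collagen-digesting cathepsin K, held 2.26 TPM in macrophages and 153 TPM in fibroblasts. The part of such cells in the Acp5 level was not tested.

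The membrane proteins held both the largest and some of the smallest differences of the set. Gpnmb, a transmembrane glycoprotein of macrophages, osteoclasts and pigment cells that is known to be abundant in lipid-laden macrophages (chromosome 6 at 49036546 to 49070929, plus strand), stood at 3696 TPM in macrophages, against 184 TPM in fibroblasts, 20.1-fold. It was number 21 among all genes in macrophages and number 862 in fibroblasts. Of 5 pigment-cell markers 0 reached 1 TPM in either library, and their summed level was 0.0809 TPM in macrophages and 0.808 TPM in fibroblasts. Lamp1 and Lamp2, the main glycoproteins of the lysosomal membrane, differed by 1.35-fold and 1.08-fold. Lamp1 stood at 1654 TPM in macrophages, against 1227 TPM in fibroblasts, and Lamp2 at 526 and 485 TPM in the same order.

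Grn encodes progranulin, a secreted protein that is also delivered to lysosomes and cut there into granulins (chromosome 11 at 102430315 to 102437048, plus strand). It stood at 3001 TPM in macrophages, against 342 TPM in fibroblasts, 8.78-fold, and was number 31 among all genes in macrophages. Relative to Psap, whose product is known to travel with progranulin, Grn stood at 0.521 in macrophages and 0.304 in fibroblasts.

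Over the whole set, the 26 enzymes that break substrates down, Hgsnat with its part in heparan sulfate breakdown among them, were compared with the 10 other members. This split was chosen after the values were seen, so it is a description only. Of all genes at 5 TPM or more, 8.77% were higher in macrophages by the rule. Of the degradative enzymes 6 (23.1%) were higher in macrophages, the median of the log2 ratios was 0.89, and their levels summed to 5936 TPM in macrophages and 2288 TPM in fibroblasts. Of the 10 activators, carriers, tagging subunits, membrane proteins and progranulin 5 (50%) were higher in macrophages, the median was 1.83 and the sums were 15726 TPM in macrophages and 3748 TPM in fibroblasts. All 7 members below their fibroblast level in macrophages were degradative enzymes, Arsb among them only without median-of-ratios scaling.

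**Figure D4:**
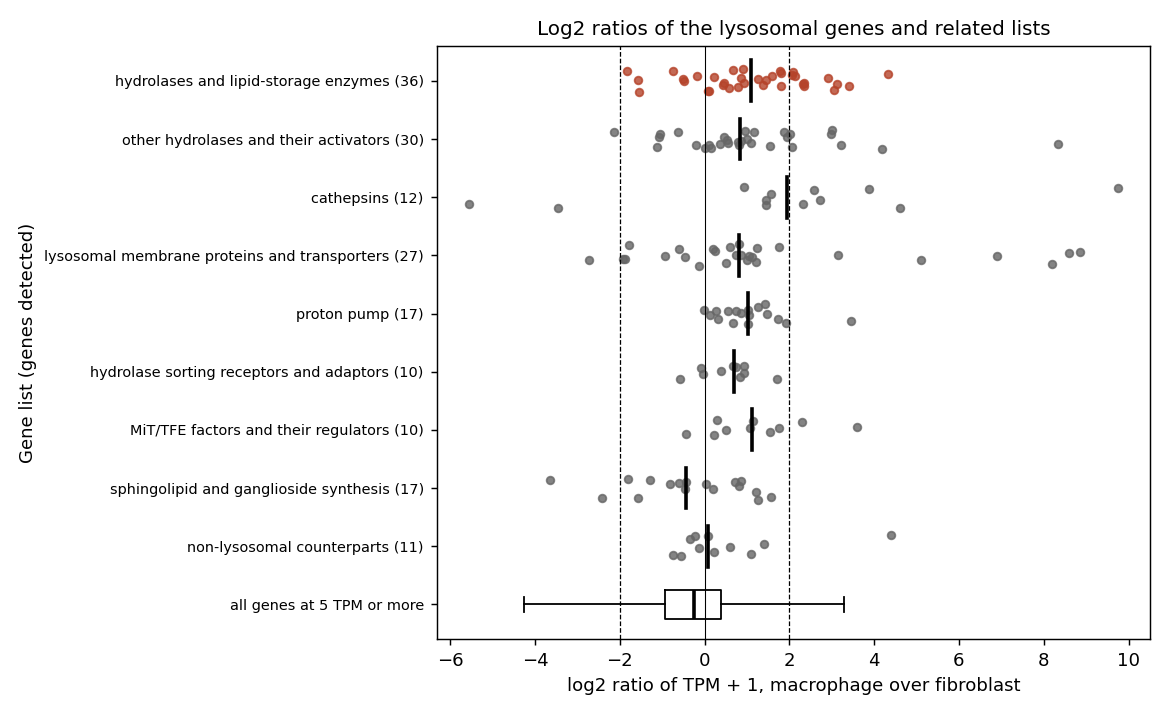
Log2 ratio of TPM plus 1, macrophage over fibroblast, for each detected gene of the set and of 8 related lists (points, with a black bar at the median). The lowest line is a box of all 11191 genes at 5 TPM or more, with quartiles at -0.93 and 0.39 and whiskers at the 5th and 95th percentile; the set's median of 1.10 lies right of that box and its points run from -1.82 to 4.32.

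Other lysosome genes were counted by the same rule. Of 88 genes in 4 further lists, 80 reached 5 TPM in either library, of which 19 (23.8%) passed toward macrophages and 4 toward fibroblasts, where 8.77% and 14.3% of all genes did so. The median log2 ratio of the 86 detected genes was 0.98. Among 30 further hydrolases and activators, 6 were higher in macrophages, among them Creg1, Pld4 and Smpdl3a. Creg1 stood at 627 TPM in macrophages against 33.7 TPM in fibroblasts, the nuclease gene Pld4 at 469 TPM in macrophages against 0.446 TPM in fibroblasts, and the phosphodiesterase gene Smpdl3a at 333 TPM in macrophages against 35.2 TPM in fibroblasts. The amidase Naaa was the 1 higher in fibroblasts, at 6.63 TPM in macrophages, against 32.2 TPM in fibroblasts. Of 12 detected cathepsins 6 passed the rule toward macrophages, led by Ctsd at 13893 TPM in macrophages against 2115 TPM in fibroblasts, and 2 toward fibroblasts, Ctsk and Ctsf. The log2 ratios of the 36 genes ran from -1.82 to 4.32, and those of the 4 lists from -5.56 for Ctsk to 9.75 for the cathepsin gene Ctss.

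Of 28 membrane proteins and transporters 6 were higher in macrophages, among them Cd68, Laptm5, Slc15a3 and Cln3. Their levels in macrophages were 3092, 1196, 544 and 215 TPM, against 9.47, 1.57, 0.414 and 23.5 TPM in fibroblasts. Cln3, the gene of a juvenile form of neuronal ceroid lipofuscinosis, was the 1 of these 4 well above trace level in fibroblasts. Laptm4b was the 1 higher in fibroblasts, at 6.43 TPM in macrophages, against 47.9 TPM in fibroblasts. Of 17 proton pump genes 16 stood above their fibroblast level in macrophages, and the median of the log2 ratios was 1.03, but Tcirg1 was the 1 past the rule, at 558 TPM in macrophages, against 49.6 TPM in fibroblasts. The pump genes, which acidify the organelle, were thus closer to each other than the 36 genes, with log2 ratios between -0.02 and 3.47.

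Of 11 genes in the list of the TFEB family and its regulators 10 were detected, and the median of the log2 ratios was 1.11. All 10 reached 5 TPM in either library. Of them 2 (20%) were higher in macrophages, against 8.77% of all genes at 5 TPM or more. The 2 were Tfec, the family member known from macrophages, at 16.9 TPM in macrophages, against 0.466 TPM in fibroblasts, and Fnip2, a partner of folliculin, at 77.2 TPM in macrophages, against 14.9 TPM in fibroblasts. Tfeb itself, named after its values were seen, was at 17.0 TPM in macrophages, against 5.21 TPM in fibroblasts, Tfe3 at 65.7 TPM in macrophages, against 29.3 TPM in fibroblasts, and Mitf at 12.8 TPM in macrophages, against 3.12 TPM in fibroblasts.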

How the data were processed

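One table of gene levels was used, with 1 column per library. The submitters' processing notes name kallisto 0.43.1 as a tool and GRCm38 as a build. How transcripts were joined into genes, from which transcript set and with which filter is not stated in the labels. The deposited values were taken as TPM, a unit the table does not name: they are not whole and summed to 999609 in the macrophage and 999545 in the fibroblast library. Rows of 1 symbol were added, which gave 34295 genes from 34456 rows, 158 symbols having more than 1 row; date-like names were kept apart by description. Depth is unknown, so no interval or detection limit is given, and a listed 0 may be a failed estimate.

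The members and lists were chosen with earlier results of these data known. A pseudocount of 1 TPM, a minimum of 5 TPM and a 4-fold limit were used. All members are named, and from each other list the most abundant genes past the limit, at most 4 in each direction, or 2 genes where there were none. One gene that this rule names is not reported here. Further genes were named after their values were seen: Tfeb, Tfe3, Mitf, Calcr, Ly6g, Gal3st1, Mertk and Igf2r. Alternatives were pseudocounts of 0.1 and 5, minima of 1 and 10 TPM or none, a 2-fold limit, scaling by median of ratios, a new total that left out mitochondrial genes and the 50 most abundant genes per library, the highest row of a symbol, protein-coding genes alone (GENCODE M21) and no filter on low levels. The new total rescaled every gene, those left out of it included. Chosen after seeing the data were the subtraction of marker shares, the background of genes with a mean of 20 TPM or more, the ratios between partner genes, the split into degradative enzymes and other members, the sums without Psap, Gpnmb and Grn, the letter strings and the 5 promoters shown. The size rule was also run on simulated data, in genes with a mean of 20 TPM or more. The planted changes lay well past the 4-fold limit, so no conclusion is drawn from it for members near that limit. Coordinates are from GENCODE M21 (GRCm38) and promoter letters from RefSeq (GRCm38.p6). Scripts ran in Python 3.11.15 with pandas 2.3.3 and numpy 2.4.6.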

Additional observations from a re-analysis of the deposited data

How the results depend on the processing

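Each library stands alone, so no replicate could be left out. No paired analysis was possible because there was 1 library per cell type. The 11 members higher in macrophages were 9 with a pseudocount of 5, where Gla and Gm2a came to log2 ratios of 1.95 and 1.86, and 18 with a 2-fold limit. The 0 members higher in fibroblasts were 1 with a pseudocount of 0.1, Acp5 at -2.05, and 3 with a 2-fold limit. Against a 2-fold limit, 15.2% of all genes at 5 TPM or more were higher in macrophages and 23.6% in fibroblasts. The members' median log2 ratio of 1.10 became 1.13 and 0.99 with pseudocounts of 0.1 and 5, 1.27 under median-of-ratios scaling and 1.23 under rescaling without the highest genes. The 4 other lysosome lists had a median of 0.98, which became 0.99 and 0.81 with those pseudocounts, 1.16 and 1.09 under those scalings and 0.95 with no filter on low levels, and with a 2-fold limit 39 of their genes passed toward macrophages and 10 toward fibroblasts. Among all genes, 652 passed toward macrophages and 896 toward fibroblasts with a pseudocount of 5, and 1698 and 2637 with a 2-fold limit, in place of 981 and 1602. The log2 ratio of Arsb became 0.01 under median-of-ratios scaling, the 1 change of sign among the members. A pseudocount cannot change a sign, and taking the highest row of a symbol cannot move the members, each of which has 1 row. Depth limits nothing that can be given a number here, since TPM do not hold it.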

Other observations

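Of 18 genes of sphingolipid and ganglioside synthesis 17 were detected and 16 reached 5 TPM in either library. Of these 16, 0 passed the 4-fold limit toward macrophages and 2 (12.5%) toward fibroblasts, near the 14.3% of all genes that did so, and over the 17 the log2 ratios, macrophage over fibroblast, had a median of -0.44. The 2 were the ceramide synthase gene Cers4, at 1.40 TPM in macrophages, against 29.2 TPM in fibroblasts, and the sphingomyelin synthase gene Sgms2, at 3.35 TPM in macrophages, against 22.2 TPM in fibroblasts. The genes that make galactosylceramide and sulfatide, Ugt8a and Gal3st1, were listed at 0 in macrophages, and at 0 and 1.43 TPM in fibroblasts.

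Enzymes that do similar work outside the lysosome mostly lay close together. Of 13 listed, 11 were detected, with a median log2 ratio of 0.08, and 10 reached 5 TPM in either library. Of these 10, 1 (10%) was higher in macrophages by the 4-fold rule, near the 8.77% of all genes that were. That gene was Nceh1, a cholesterol ester hydrolase of the endoplasmic reticulum membrane, at 157 TPM in macrophages, against 6.50 TPM in fibroblasts. It stood beside Lipa, which acts on cholesterol esters inside the lysosome and was likewise higher in macrophages.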
